A study of Drosophila melanogaster with 24 samples.

Results

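Flight and body muscle sarcomere genes of *Drosophila melanogaster* were followed across 6 groups of whole adult flies. The 10 genes were chosen by name, with earlier results of these data known. They were matched by FlyBase symbol to the 17611 gene identifiers of the deposited count table, and each of them was found. *Act88F*, *fln*, and *TpnC4* made up the flight list of 3 genes, and *Act57B*, *Mhc*, *Mlc2*, *Tm2*, *up*, *wupA*, and *sls* made up the body list of 7 genes. Levels were CPM, the counts of a gene per 1000000 gene counts of its library, in each of 18 libraries.

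Muscle contracts in repeating units called sarcomeres, in which thin filaments of actin slide along thick filaments of myosin. Calcium opens the thin filament to myosin by binding troponin C, which acts with troponin I, troponin T, and tropomyosin, and giant elastic proteins tie the filaments to the Z-discs. The indirect flight muscles of the thorax use some genes of their own, such as the actin gene *Act88F*, and they also use genes that other muscles share. *Mhc*, for example, is the only muscle myosin heavy chain gene of the fly and gives different isoforms by splicing, so the body list is not free of flight muscle.

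All flies were of the w1118 strain, were reared on yeast-glucose medium, and were whole adults from bottles that held males and females in equal number. Parkinson's *Drosophila* (PD) had been fed rotenone, an inhibitor of mitochondrial complex I, for 7 days, and control *Drosophila* (CTRL) had been fed its solvent DMSO, and both were collected at experimental day 7, when the adults were 14 days old. The labels give 250 µM rotenone in the protocol of every group, the DMSO-fed ones included. The other groups were collected at day 14, as adults 21 days old, with no rotenone in the medium in their last 7 days. PWFC flies were PD flies that were then given gut content of CTRL flies by fecal microbiota transplantation (FMT), and PWOFC flies were PD flies kept on without FMT. CWFP flies were CTRL flies that were then given gut content of PD flies, and CWOFP flies were CTRL flies kept on without FMT. The study obtained the gut content by grinding donor flies in PBS and added it to the medium. It states that side effects of rotenone could not be fully excluded. Each group had 3 libraries, which the study calls biological replicates. The labels do not say which bottles they came from, so p-values measure the spread between these libraries, part of which may be technical. The series labels 24 samples, and the 6 that received microbiota of patients were not used here.

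The libraries held 17920498 to 29165130 counts. Replicate 3 of CWOFP stood apart from the other 17 libraries, with the highest level of 8 of the 10 genes. *Mlc2* was 3.90 times its median in the others there, and *Act88F* 5.54 times. That library also held 45.7 CPM of *Fbp1*, a gene of the larval fat body, against at most 0.103 CPM elsewhere, and 858 CPM of the muscle actin gene *Act79B*, against at most 314.0 CPM elsewhere. Replicate 1 of CWFP had the lowest level of 8 of the 10 genes and 20.2 CPM of 5 testis genes in sum, against 463 and 620 CPM in the other CWFP libraries. Values without these libraries are given beside the comparisons that use them.

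**Figure D1:**
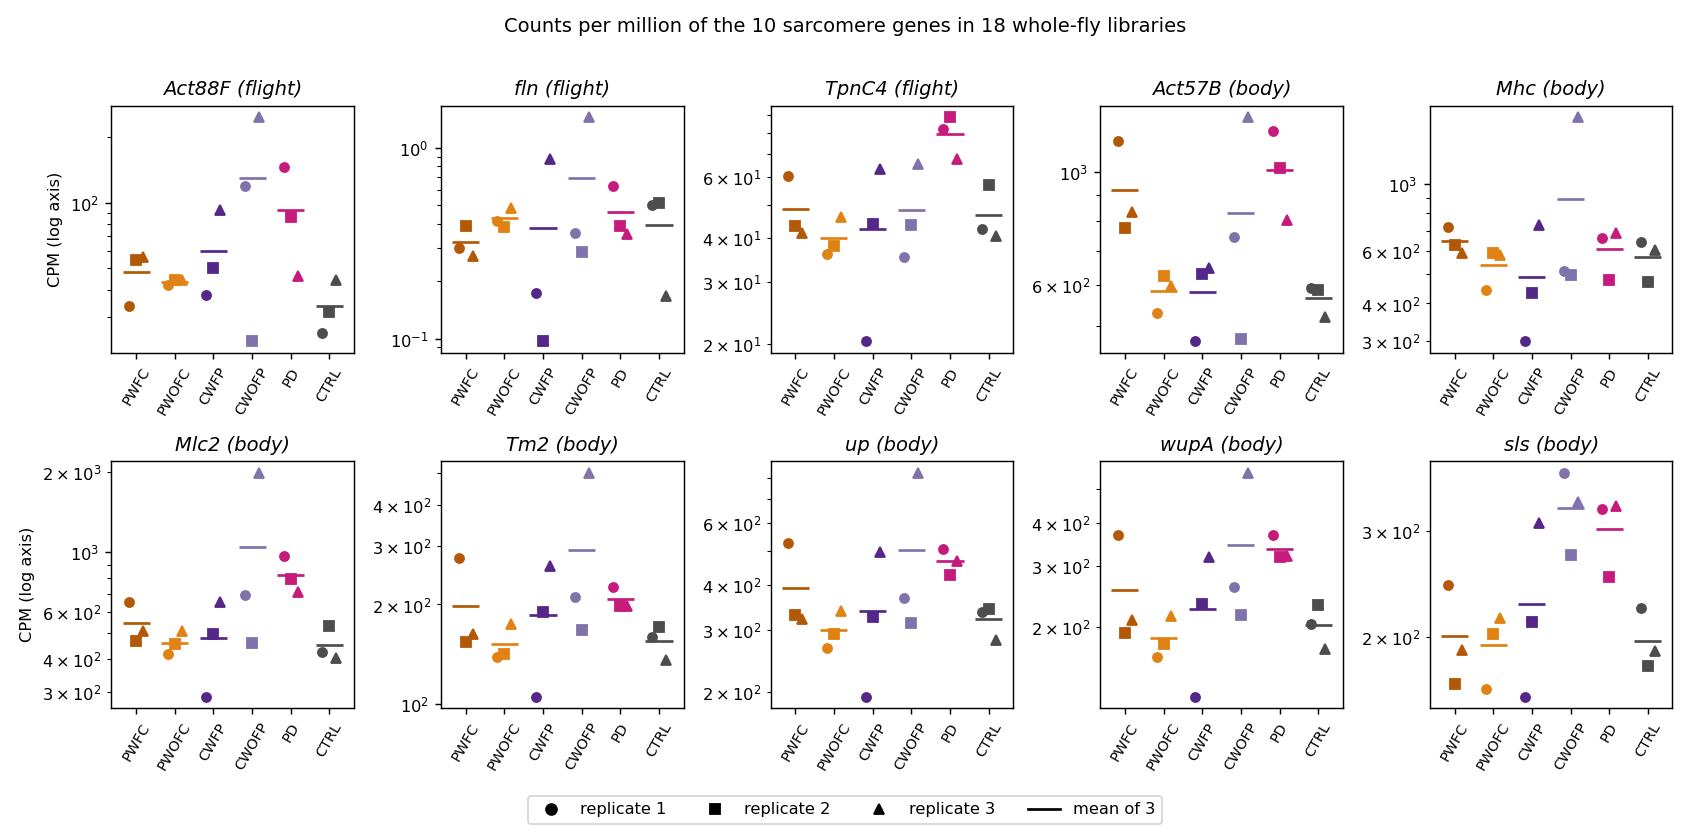
Level of each of the 10 genes in CPM (log axis) in the 3 libraries of the PWFC, PWOFC, CWFP, CWOFP, PD, and CTRL groups, with a line at the group mean. Replicate 3 of CWOFP lies highest for *Mlc2* (1985 CPM) and *Mhc* (1678 CPM) but not for *sls*, and *fln* stays at or below 0.872 CPM in the other 17 libraries.

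The levels of the 10 genes were first compared per length, as CPM per kilobase of exon, because a longer gene gathers more counts. *Act57B*, a muscle actin gene, had the highest median over the 18 libraries at 372 CPM per kilobase, followed by *Mlc2*, the myosin regulatory light chain gene, at 223 CPM per kilobase. *Act57B* was the higher of the pair in 17 of 18 libraries. *up*, which encodes troponin T, had 134 CPM per kilobase and *wupA*, which encodes troponin I, had 113 CPM per kilobase, in this order in 18 of 18 libraries.

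The genes in the middle of the order did not separate. *Tm2*, a tropomyosin gene, had a median of 65.9 CPM per kilobase and *Mhc*, the myosin heavy chain gene, had 65.1 CPM per kilobase, and *Tm2* was the higher in 12 of 18 libraries. *TpnC4*, the main troponin C gene of flight muscle, followed at 51.6 CPM per kilobase, below *Mhc* in 13 of 18 libraries. *Act88F*, the actin gene of the indirect flight muscles, had a median of 28.4 CPM per kilobase and lay below *TpnC4* in 16 of 18 libraries. The last places were taken by *sls*, which encodes titin-like proteins of the Z-disc and I-band, at 3.71 CPM per kilobase over its 58996 exon bases, and by *fln* at 0.297 CPM per kilobase. Levels of the actin genes are uncertain in size, because their coding sequences are nearly identical and the handling of reads with several matches is not given in the sources used here.

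*fln* (FBgn0005633) encodes flightin, a thick filament protein of the indirect flight muscles, and was close to the floor of the counts. It had 6, 8, and 6 counts in the PWFC libraries and 9, 8, and 11 in the PWOFC libraries. The CWFP libraries had 4, 2, and 18 counts, and the CWOFP libraries had 8, 6, and 31. In the PD libraries it had 16, 10, and 8 counts, against 13, 15, and 3 in the CTRL libraries. The groups overlapped or touched in each of the 6 comparisons. The gene lies at 3L:19989551-19991220 of BDGP6 and shares 801 of its 1300 exon bases with *asRNA:CR45161* on the other strand, which itself had 0 to 4 counts. The other 499 exon bases are not shared with it, and *fln* had a median of 8 counts over all its bases. A counter that ignores strand may leave the reads over shared bases unassigned. How far this lowers the level was not tested, and no fold change of *fln* is given. The gene passed the filter on low counts only in PD against CTRL, CWOFP against CTRL, and the interaction tests, and the other comparisons cover 9 of the 10 genes.

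The first comparison asked how the genes differed at the end of rotenone feeding, in PD against CTRL. The log2 fold changes of 8 of the 10 genes lay between 0.38 and 1.43, with PD libraries above CTRL libraries, but none passed the test. The others were *Mhc* and *fln*, whose groups overlapped. In whole flies, a change in the share of muscle cells and a change of RNA per muscle cell cannot be told apart.

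Of the actin genes, *Act88F* (FBgn0000047, 3R:15439969-15442177) had 145, 86.3, and 46.3 CPM in the PD libraries, against 25.4, 31.4, and 44.3 CPM in the CTRL libraries. The PD libraries spread widely, and the lowest of them was next to the highest CTRL library. Its log2 fold change was 1.43 (SE 0.38), and the adjusted p of edgeR's quasi-likelihood test was 0.0550. *Act57B* (FBgn0000044, 2R:20944021-20946431), the actin gene of larval and adult body muscle, had 1202, 1016, and 806 CPM in PD, against 594, 588, and 519.7 CPM in CTRL. All PD libraries lay above all CTRL libraries, with a log2 fold change of 0.80 (SE 0.19, adjusted p = 0.0501).

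The troponin complex and tropomyosin showed the same order of libraries. *TpnC4* (FBgn0033027, 2R:5503437-5507866), which binds calcium, had 82.5, 88.9, and 67.4 CPM in PD, against 42.4, 57.0, and 40.7 CPM in CTRL, and a log2 fold change of 0.74 (SE 0.20, adjusted p = 0.0567). *wupA* (FBgn0283471, X:18105568-18116922), which encodes the inhibitory subunit, had 367, 319, and 321 CPM in PD, against 205, 232, and 174 CPM in CTRL, and a log2 fold change of 0.69 (SE 0.17, adjusted p = 0.0506). In *up* (FBgn0004169, X:13593474-13602578), which encodes the subunit that binds tropomyosin, the values were 504, 428, and 468 CPM in PD, against 337, 344, and 281 CPM in CTRL, for a log2 fold change of 0.50 (SE 0.16, adjusted p = 0.0667). The groups did not overlap for any of these 3 genes. *Tm2* (FBgn0004117, 3R:15310193-15315197) had 226.5, 198, and 198 CPM in PD, against 159.6, 171, and 135 CPM in CTRL, and the smallest difference of the genes whose groups did not overlap, with a log2 fold change of 0.38 (SE 0.16, adjusted p = 0.118).

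The genes of the thick filament differed from each other. *Mhc* (FBgn0264695, 2L:16766566-16788766), the motor itself, had 661, 481, and 689 CPM in PD, against 644, 472, and 605 CPM in CTRL. The groups overlapped, and the log2 fold change of 0.050 had a 95% interval from -0.36 to 0.46. *Mlc2* (FBgn0002773, 3R:30171438-30174551), whose product sits on the neck of the same motor, had 970.1, 794, and 713 CPM in PD, against 425, 529.5, and 402 CPM in CTRL. Its log2 fold change was 0.83 (SE 0.19, adjusted p = 0.0501). *sls* (FBgn0086906, 3L:2039681-2115611) had 327, 251, and 329 CPM in PD, against 223, 179, and 189 CPM in CTRL, with no overlap and a log2 fold change of 0.58 (SE 0.16, adjusted p = 0.0570).

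Of the 10 genes, 0 passed an adjusted p of 0.05 in edgeR in PD against CTRL, and 8 had an unadjusted p under 0.05, in all of which the PD libraries lay above the CTRL libraries. Among all genes tested edgeR called 1.72% higher in PD, 37.6% had an unadjusted p under 0.05 in either direction, and 23.8% had all 3 PD libraries above all 3 CTRL libraries. DESeq2 called 7 members higher, among 9.37% of all genes. The median log2 fold change was 0.63 over the 10 genes, against 0.046 over all genes tested. The count of genes called was decided by single libraries and settings, since it was 7 without replicate 2 of CTRL, 3 without replicate 3 of PD, 0 without any one of the other libraries, 5 with upper quartile scaling, and 3 without the filter on low counts. Of all genes, 21.1%, 1.45%, 6.13%, and 3.43% were called higher without replicate 2 of CTRL, without replicate 3 of PD, with upper quartile scaling, and without the filter. Upper quartile scaling shifted the median of all genes to 0.23, and the members are read relative to that median.

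**Figure D2:**
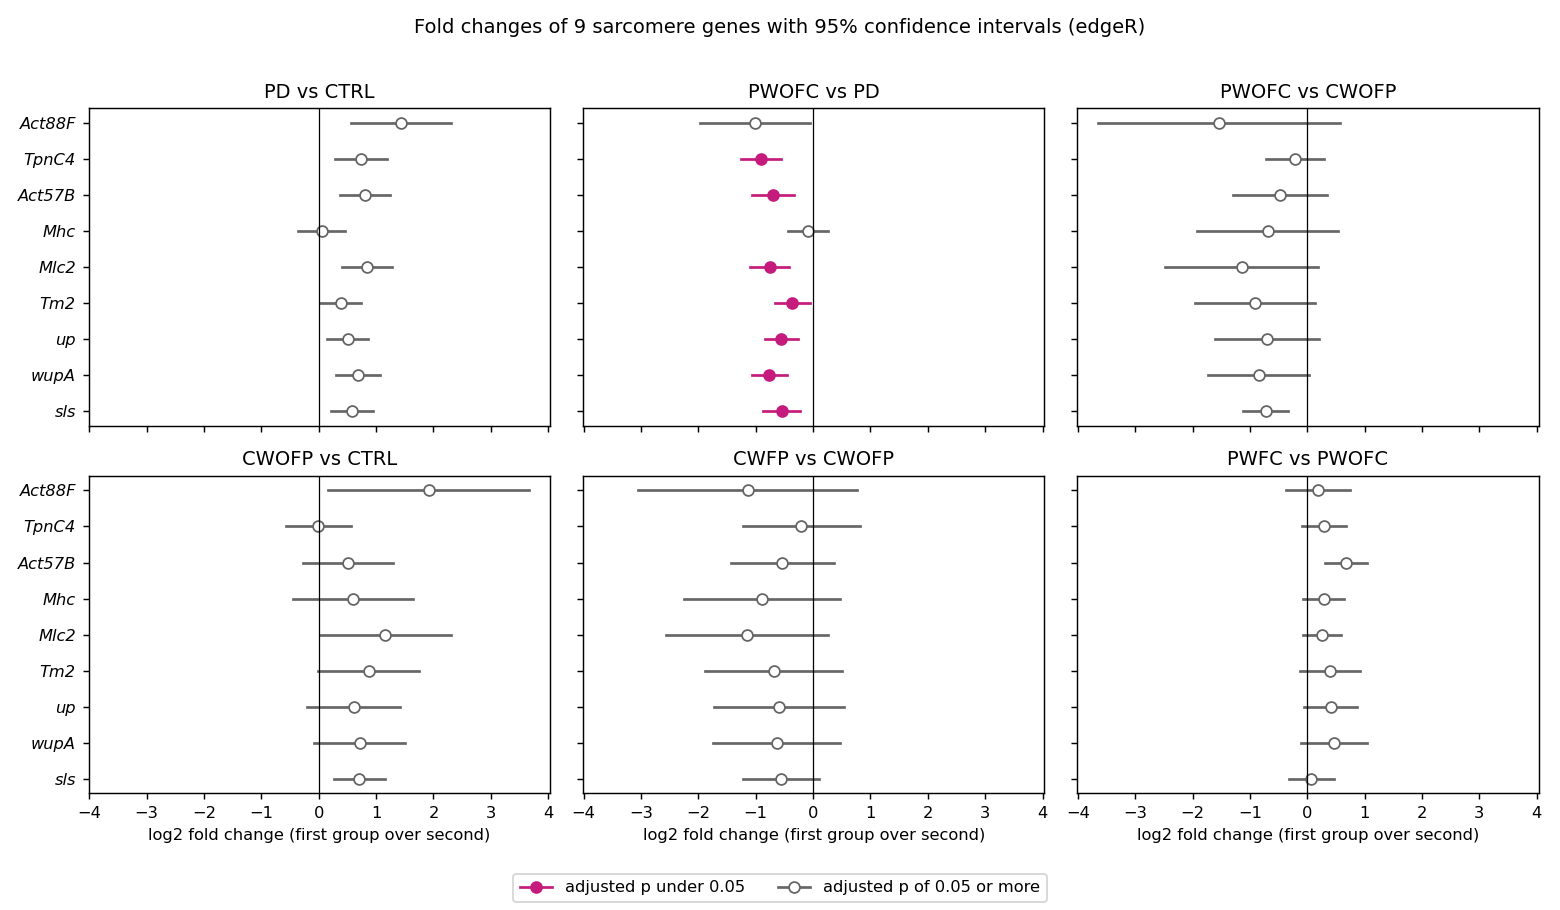
Log2 fold changes with 95% confidence intervals of the 9 sarcomere genes other than *fln* in 6 comparisons, first group over second, fitted by edgeR on the 6 libraries of each comparison. The 7 filled points, all in PWOFC against PD, are the genes with an adjusted p under 0.05, and the intervals of comparisons with CWOFP are the widest.

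Flies with past rotenone, 7 days later, were compared with PD itself, in PWOFC against PD. *TpnC4*, *wupA*, *Mlc2*, *Act57B*, *up*, *sls*, and *Tm2* were lower in PWOFC, by 0.37 to 0.91 on the log2 scale, and *Mhc* differed little. Age, time off rotenone, and the day of collection all change in this comparison and cannot be told apart. The PD libraries are those of the comparison with CTRL, so the values here and there are not independent.

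*TpnC4*, the calcium sensor of the flight list, had 36.0, 38.1, and 46.2 CPM in PWOFC, against 82.5, 88.9, and 67.4 CPM in PD. It fell by 0.91 on the log2 scale (SE 0.16, adjusted p = 0.000803). *wupA* had 164, 179, and 215 CPM in PWOFC, against 367, 319, and 321 CPM in PD, and fell by 0.76 (SE 0.14, adjusted p = 0.000909). Both of these troponin genes thus had PWOFC libraries wholly below the PD libraries, as did *up*, the other troponin gene among the members. *Mlc2* had 416, 454, and 509.8 CPM in PWOFC, against 970.1, 794, and 713 CPM in PD, and fell by 0.76 on the log2 scale (SE 0.15, adjusted p = 0.00159). *Act57B* had 529, 626, and 597 CPM in PWOFC, against 1202, 1016, and 806 CPM in PD, and fell by 0.70 on the log2 scale (SE 0.17, adjusted p = 0.00403).

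The other genes called had smaller differences. *up* had 266, 291, and 339 CPM in PWOFC, against 504, 428, and 468 CPM in PD, and fell by 0.55 on the log2 scale (SE 0.13, adjusted p = 0.00412). *sls* had 164, 202, and 215 CPM in PWOFC, against 327, 251, and 329 CPM in PD, and fell by 0.55 on the log2 scale (SE 0.14, adjusted p = 0.00663). *Tm2* had 139, 142, and 174 CPM in PWOFC, against 226.5, 198, and 198 CPM in PD, and fell by 0.37 on the log2 scale (SE 0.14, adjusted p = 0.0378), a call that was lost under RLE scaling (adjusted p = 0.0795), with DESeq2 (adjusted p = 0.141), without the filter on low counts, with the replicate number as a block, and without any of 4 libraries (replicates 1 and 2 of PD and of PWOFC). *Act88F* had 41.9, 44.4, and 44.2 CPM in PWOFC, against 145, 86.3, and 46.3 CPM in PD. The PWOFC libraries lay close together and just below the lowest PD library, and the log2 fold change of -1.01 (SE 0.40) had an adjusted p of 0.0639, which became 0.000806 without replicate 3 of PD. *Mhc* had 442.5, 589.8, and 583 CPM in PWOFC, against 661, 481, and 689 CPM in PD, with overlap and a log2 fold change of -0.085 (95% interval from -0.43 to 0.26).

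Thus 7 of the 9 genes tested were called lower in PWOFC, and 8 of 9 had all PWOFC libraries below all PD libraries. Much of the transcriptome moved in this comparison, with 34.0% of all genes tested called lower and 40.6% having all 3 PWOFC libraries below all 3 PD libraries. The median log2 fold change was -0.70 over the 9 genes and -0.091 over all genes. Upper quartile scaling moved the median of all genes to -0.39 and called 8 members lower, among 43.8% of all genes, and these are read relative to that median. In a fit on all 18 libraries with 1 shared spread, 2 of the 9 genes were called lower, *TpnC4* and *sls*, among 13.7% of all genes. Adjusted p values in that fit were 0.0560 for *Act57B* and 0.0849 for *wupA*.

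Flies without rotenone were compared over the same days, in CWOFP against CTRL. The log2 fold changes were positive for 8 of the 9 genes other than *fln*, but the CWOFP libraries were uneven and no gene passed the test. *sls* had 375, 273, and 334 CPM in CWOFP, against 223, 179, and 189 CPM in CTRL, the only member whose groups did not overlap. Its log2 fold change was 0.70 (SE 0.19, adjusted p = 0.145 in edgeR and 0.0323 in DESeq2). *Act88F* had 119, 23.2, and 246 CPM in CWOFP, against 25.4, 31.4, and 44.3 CPM in CTRL. One CWOFP library was thus below every CTRL library, and the log2 fold change of 1.92 (SE 0.74) had an adjusted p of 0.368. *TpnC4* had 35.5, 43.6, and 65.4 CPM in CWOFP, against 42.4, 57.0, and 40.7 CPM in CTRL, with a log2 fold change of -0.0093 that changed sign with the scaling. Without replicate 3 of CWOFP the values were 1.17 for *Act88F*, 0.76 for *sls*, 0.40 for *Mlc2*, -0.15 for *Mhc*, 0.15 for *Act57B*, 0.33 for *Tm2*, 0.12 for *up*, 0.27 for *wupA*, and -0.22 for *TpnC4*. Of all genes tested 0.0322% were called higher and 9.41% had all CWOFP libraries above all CTRL libraries. Of the 10 members, 0 were called by edgeR, 3 had an unadjusted p under 0.05 (*Act88F*, *Mlc2*, and *sls*), and DESeq2 called *sls*. By these 2 rules 11.5% and 0.978% of all genes passed, the second counting higher genes.

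At day 14, flies with and without past rotenone were compared in PWOFC against CWOFP. The log2 fold changes of the 9 genes lay between -1.54 and -0.22, but 0 genes passed the test in edgeR, 1 had an unadjusted p under 0.05, and DESeq2 called 1. That gene was *sls*, with 164, 202, and 215 CPM in PWOFC, against 375, 273, and 334 CPM in CWOFP. The groups did not overlap, and the log2 fold change was -0.73 (SE 0.17, adjusted p = 0.120 in edgeR and 0.00978 in DESeq2). *wupA* had 164, 179, and 215 CPM in PWOFC, against 261, 216, and 556 CPM in CWOFP, with 2 libraries of different groups almost level and a log2 fold change of -0.85 (SE 0.36, adjusted p = 0.209). *Mlc2* had 416, 454, and 509.8 CPM in PWOFC, against 692, 459.8, and 1985 CPM in CWOFP. Its log2 fold change of -1.14 (SE 0.54, adjusted p = 0.240) was -0.31 without replicate 3 of CWOFP, where *sls* stayed at -0.73. The other values without that library were -0.73 for *Act88F*, -0.34 for *wupA*, -0.30 for *Tm2*, -0.17 for *up*, -0.051 for *Act57B*, 0.053 for *TpnC4*, and 0.11 for *Mhc*. Among all genes tested 0.0163% were called lower, 5.10% with DESeq2, 25.2% had an unadjusted p under 0.05, and 17.3% had all PWOFC libraries below all CWOFP libraries, against 2 of the 9 members.

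Whether the difference with rotenone changed between the days was tested as an interaction, the log2 fold change of PWOFC over CWOFP minus that of PD over CTRL. Of the 10 members, 5 were called lower, among 13.8% of all genes tested. *sls* had the smallest adjusted p, with a change of -1.18 (SE 0.23, adjusted p = 0.00757). Its values in the separate fits of 6 libraries were -0.73 at day 14 and 0.58 at day 7. The interaction was fitted on 12 libraries scaled together, so its values are not exact differences of those. *sls* was the only member called without each of the 12 libraries in turn, with adjusted p values from 0.00373 to 0.0268. The change was -1.42 for *wupA* (SE 0.40, adjusted p = 0.0206), -1.86 for *Mlc2* (SE 0.57, adjusted p = 0.0272), -2.86 for *Act88F* (SE 0.96, adjusted p = 0.0418), and -1.15 for *Act57B* (SE 0.41, adjusted p = 0.0446). Without replicate 3 of CWOFP these 4 values were -0.89, -1.01, -2.02, and -0.71, and 3 members stayed called (*sls*, *wupA*, and *Mlc2*), among 8.72% of all genes. *TpnC4*, *Tm2*, and *up* had adjusted p values of 0.0513, 0.0537, and 0.0508, and RLE scaling called 8 members, among 14.3% of all genes. The count was 1 without replicate 1 of PD, replicate 1 of PWOFC, or replicate 3 of CTRL, and 2 without replicate 1 of CTRL. It was 3 without replicate 2 of PD or replicate 2 or 3 of PWOFC, and 7 without replicate 1 or 2 of CWOFP. With one library left out, the number of all genes called in either direction ran from 1651 to 5977.

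The first FMT comparison asked how CTRL flies given gut content of PD flies differed from those without it, in CWFP against CWOFP. No member passed the test, and the groups overlapped for each of the 9 genes tested. *Act57B* had 466, 633, and 649.6 CPM in CWFP, against 746, 471, and 1278 CPM in CWOFP. *Mhc*, the myosin heavy chain gene, had 299, 434, and 734 CPM in CWFP, against 514, 497, and 1678 CPM in CWOFP. *Act88F* had 37.9, 50.2, and 92.5 CPM in CWFP, against 119, 23.2, and 246 CPM in CWOFP. In CWOFP replicate 3 was the highest library for all 3 genes, and in CWFP replicate 1 was the lowest. *sls*, the gene with the smallest p (unadjusted p = 0.0836), had 159.2, 212, and 309 CPM in CWFP, against 375, 273, and 334 CPM in CWOFP, and a log2 fold change of -0.56 (SE 0.28).

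The log2 fold changes of the 9 genes lay between -1.15 and -0.20 in this comparison. edgeR called 0 members, with 0 members at an unadjusted p under 0.05, DESeq2 called 0, and 0% of all genes tested were called lower. Over all genes 2.16% had an unadjusted p under 0.05. In 3.55% of all genes the CWFP libraries all lay below the CWOFP libraries, and in 0 members. Without replicate 3 of CWOFP the values came to -0.20 for *Act88F*, -0.21 for *Mlc2*, 0.0042 for *Mhc*, 0.15 for *TpnC4*, 0.00068 for *Act57B*, 0.024 for *Tm2*, 0.042 for *up*, -0.026 for *wupA*, and -0.46 for *sls*. Without replicate 1 of CWFP they lay between -0.91 and 0.12, and *TpnC4* alone was positive. With replicate 1 of CWFP left out as well, a setting chosen after seeing the data, 8 of the 9 genes had a positive value and *sls* had -0.27. That setting takes out the lowest CWFP library and the highest CWOFP library for most of these genes, so the values move upward by its construction, and it leaves 1 of the 3 pairs of one replicate number. By number, *Mhc* and *sls* were lower in CWFP in 3 of 3 pairs and the other 7 genes in 2 of 3, where 9.25% of all genes were lower in all 3 pairs. With the number as a block the values were -0.73 for *Act88F*, -0.95 for *Mlc2*, -0.74 for *Mhc*, and -0.58 for *sls*, and 0 members were called.

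The other FMT comparison asked how PD flies given gut content of CTRL flies differed from those without it, in PWFC against PWOFC. The muscle actin gene *Act57B* had the largest difference, with 1148.5, 775, and 834 CPM in PWFC, against 529, 626, and 597 CPM in PWOFC. All PWFC libraries lay above all PWOFC libraries, and the log2 fold change was 0.67 (SE 0.15, 95% interval from 0.30 to 1.03). Its unadjusted p was 0.00375, and its adjusted p was 0.471 in edgeR and 0.0123 in DESeq2. Replicate 1 of PWFC, the highest library here, had 308 CPM of 5 testis genes in sum. The other PWFC libraries had 43.7 and 116 CPM. Its 7 eggshell genes summed to 7593 CPM, against 13331 and 10419 CPM in the others. Without that library the log2 fold change of *Act57B* was 0.57. The part of such differences in the muscle values was not tested. *Mhc* had 720.4, 628, and 590.2 CPM in PWFC, against 442.5, 589.8, and 583 CPM in PWOFC, with 2 libraries of different groups almost level and a log2 fold change of 0.28 (SE 0.15, adjusted p = 0.993). *TpnC4* had 60.3, 43.5, and 41.4 CPM in PWFC, against 36.0, 38.1, and 46.2 CPM in PWOFC, with overlap. *Act88F* had 33.6, 54.5, and 56.4 CPM in PWFC, against 41.9, 44.4, and 44.2 CPM in PWOFC, with a log2 fold change of 0.18 (95% interval from -0.37 to 0.74). edgeR called 0 of the 9 members, 1 had an unadjusted p under 0.05, and DESeq2 called 1. Of all genes tested 0% were called higher by edgeR and 0.877% by DESeq2, 4.12% had an unadjusted p under 0.05, and 4.94% had all PWFC libraries above all PWOFC libraries, against 2 of the 9 members.

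Whether the difference with FMT depended on past rotenone was tested as the value of PWFC over PWOFC minus that of CWFP over CWOFP. The estimates of the 9 members other than *fln* were between 0.53 and 1.44. They were between 0.15 and 0.70 without replicate 3 of CWOFP and between 0.21 and 1.19 without replicate 1 of CWFP. On all 12 libraries 0 members passed the test in edgeR, 1 had an unadjusted p under 0.05, and 0% of all genes tested were called higher. The member was *Act57B*, with a value of 1.25 (SE 0.44, adjusted p = 1.00), which came to 0.70 without replicate 3 of CWOFP. Over all genes 303 had an unadjusted p under 0.05 in edgeR, and DESeq2 was not run for the interactions.

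Flight and body genes were set against each other within each library, which takes out the library scaling. The summed CPM of the flight genes was 2.40% to 5.36% of that of the body genes. As a log2 ratio it was -4.49 ± 0.40 in PD and -4.94 ± 0.26 in CTRL (SD, n = 3 each), and the groups overlapped. The ratio was -4.84 ± 0.08 in PWOFC and -4.68 ± 0.43 in CWOFP, and again the groups overlapped. With FMT it was -5.00 ± 0.33 in PWFC, against the value above in PWOFC, and -4.67 ± 0.19 in CWFP, against that in CWOFP. PD replicates 1 and 2 had the highest shares, 5.36% and 5.04%, and PD replicate 3 had 3.24%, inside the CTRL range of 2.64% to 3.69%. Between these PD replicates 1 and 3, *Act88F* had 145 and 46.3 CPM, and *TpnC4* had 82.5 and 67.4 CPM. No p is given for these ratios, because the genes were chosen with results of these data known.

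Ratios between the body genes varied as well. *Mlc2*, the light chain gene, had 1.03 to 1.65 counts per count of *Mhc* in PD, against 0.661 to 1.12 in CTRL. *sls* had 0.478 to 0.523 counts per count of *Mhc* in PD, against 0.313 to 0.379 in CTRL, and here the groups did not overlap. The *sls* ratio was 0.343 to 0.370 in PWOFC, below the PD range and within the CTRL range. High ratios were not particular to PD. The CWFP libraries, of flies given gut content of PD flies but not fed rotenone, spanned 0.421 to 0.533. Replicates 1 and 2 of CWOFP, without either, had 0.730 and 0.550. Replicate 3 of CWOFP had 0.199, the lowest of all 18 libraries. There *Mhc* was 2.85 times its median in the others and *sls* was 1.56 times.

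**Figure D3:**
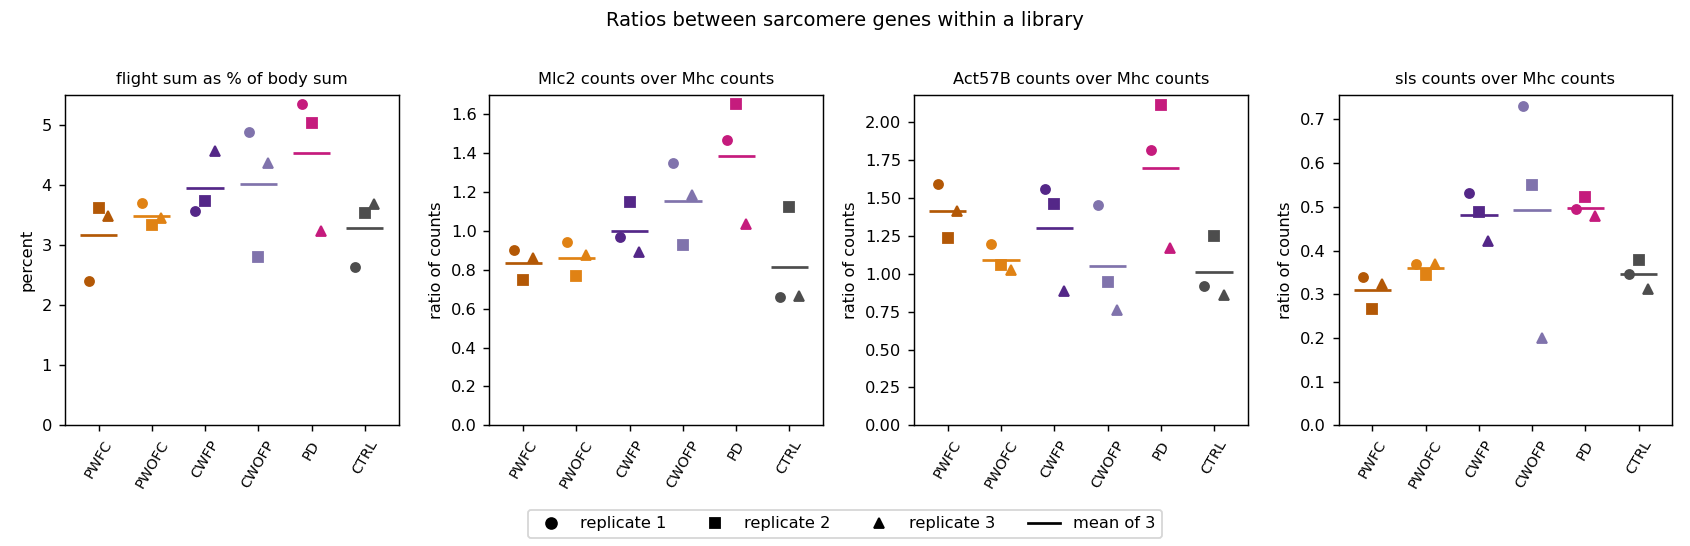
Ratios within each library by group, with a line at the mean of 3. From left to right are the flight sum as a percent of the body sum (2.40% to 5.36%), and the counts of *Mlc2*, *Act57B*, and *sls* over those of *Mhc*. The *sls* ratio of PD (0.478 to 0.523) lies above that of CTRL (0.313 to 0.379).

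The fly has 6 actin genes, of which *Act57B*, *Act79B*, *Act87E*, and *Act88F* serve muscle, and *Act5C* and *Act42A* serve the cytoskeleton of all cells. The muscle genes held 33.2% to 43.5% of the actin counts in PD, against 20.6% to 24.1% in CTRL. *Act57B* alone held 21.3% to 29.1% in PD, against 13.8% to 16.1% in CTRL. *Act88F* held 1.22% to 3.30% in PD, against 0.618% to 1.17% in CTRL, without overlap. Among flies of day 14 the muscle genes held 21.9% to 29.8% in PWFC, against 17.6% to 20.5% in PWOFC. They held 13.9% to 27.0% in CWFP, against 15.9% to 52.1% in CWOFP, where the highest share was that of replicate 3. These shares do not depend on the library scaling, but they fall when the cytoplasmic genes are higher. *Act5C* had 2144, 1748, and 2209 CPM in PD, against 2882, 2348, and 2626 CPM in CTRL, below it in every library.

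**Figure D4:**
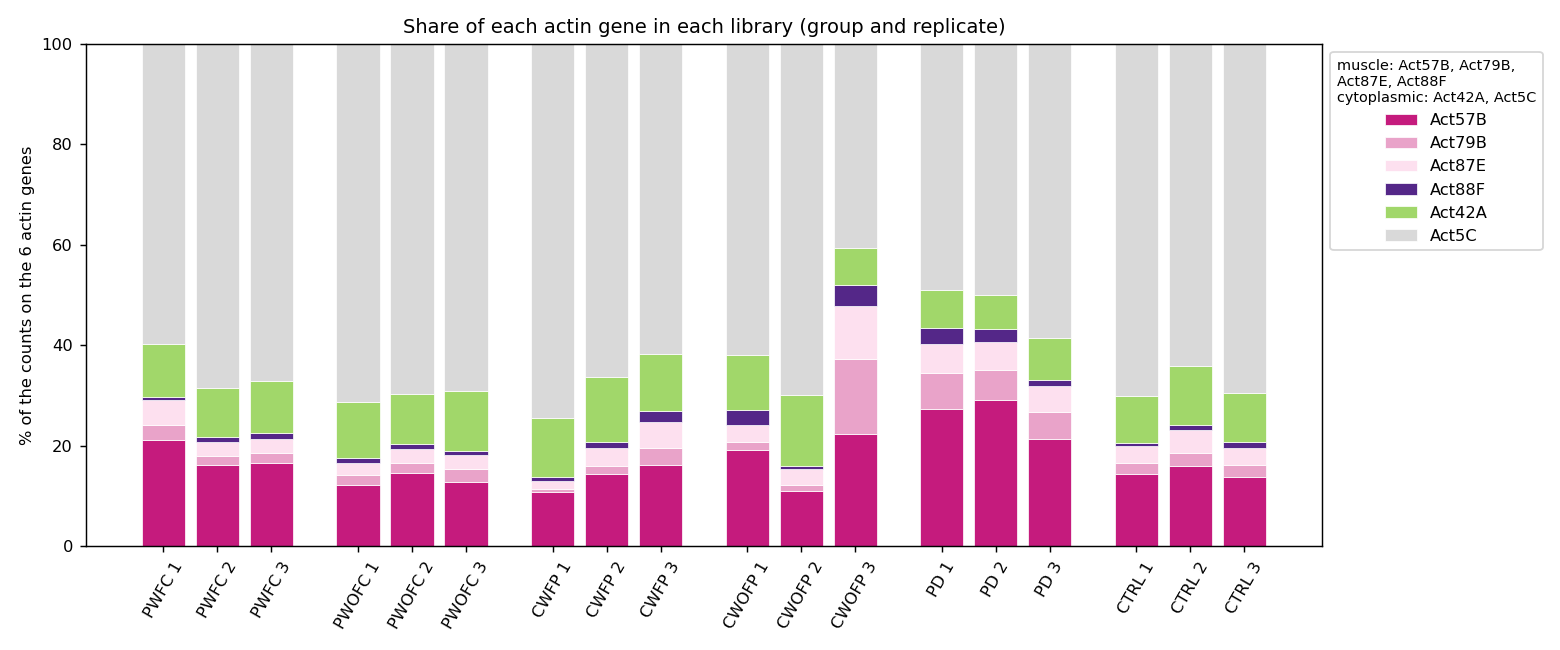
Share of each of the 6 actin genes in the actin counts of each library, as stacked bars that reach 100%. The muscle genes *Act57B*, *Act79B*, *Act87E*, and *Act88F* held 33.2% to 43.5% in PD and 52.1% in replicate 3 of CWOFP.

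The 10 genes were read beside 35 other muscle genes in 5 lists. In PD against CTRL 3 of the 35 were called higher and 0 lower, where 1.72% of all genes were called higher. They were *Act79B*, an actin gene of tubular muscle, with 314.0, 208, and 203 CPM in PD, against 89.8, 93.7, and 89.6 CPM in CTRL (log2 fold change 1.37, SE 0.20, adjusted p = 0.0117), *Zasp66*, a Z-disc gene (0.88, SE 0.17, adjusted p = 0.0338), and *TpnC41C*, another troponin C gene (1.08, SE 0.24, adjusted p = 0.0453). DESeq2 called 12 of the 35 higher and 2 lower, against 9.37% higher and 14.7% lower of all genes. Without one library edgeR called 0 to 15 of the 35, beside 39 to 5361 of all genes. By list, 6 of 10 thin filament genes, 6 of 6 thick filament genes, 7 of 9 genes of the Z-disc and attachment, 2 of 5 genes of calcium handling and energy, and 3 of 5 regulators had a positive value. The median was 0.25 over the 35 genes and 0.046 over all genes.

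In PWOFC against PD 14 of the 35 were called lower and 7 higher, where 34.0% of all genes were called lower and 30.0% higher, so these counts lie near the background. With upper quartile scaling the counts were 20 lower and 3 higher, against 43.8% and 19.2% of all genes. Thin filament genes were called lower in 5 of 10 cases, thick filament genes in 4 of 6, and Z-disc and attachment genes in 4 of 9. *Zasp66* (-0.98, SE 0.14, adjusted p = 0.000294), *TpnC41C* (-1.14, SE 0.17, adjusted p = 0.000335), and the muscle LIM protein gene *Mlp60A* (-1.03, SE 0.16, adjusted p = 0.000412) were among the lower genes. Higher in PWOFC was *bru1*, which encodes a splicing factor of flight muscle that also acts in the ovary, with a log2 fold change of 1.18 (SE 0.15, adjusted p = 0.000236). Called genes of calcium handling and energy were higher in 2 cases and lower in 1, and regulators were higher in 2 cases and lower in 0. CWFP against CWOFP, PWFC against PWOFC, PWOFC against CWOFP, and CWOFP against CTRL each had 0 of the 35 called by edgeR, with 0, 2, 13, and 6 at an unadjusted p under 0.05, beside 2.16%, 4.12%, 25.2%, and 11.5% of all genes. DESeq2 called 6 of them lower in PWOFC against CWOFP, beside 5.10% of all genes, and 0 in the other 3. It also called 2 higher there, for which no share of all genes is given, so they are not read against the background.

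Markers of other tissues moved with the same groups, and their part in the muscle values was not tested. The summed CPM of 7 eggshell genes was 1274 to 1672 in PD, against 6834 to 12397 in CTRL, and that of 3 yolk protein genes was 6701 to 7130.5 in PD, against 14589 to 25001 in CTRL. Germline genes of the ovary, 5 in number, summed to 202 to 341 CPM in PD, against 412 to 926 CPM in CTRL. Genes of the testis, 5 in number, summed to 497 to 733 CPM in PD, against 245 to 384 CPM in CTRL, whereas 4 accessory gland genes, also of the male, summed to 177 to 248 CPM in PD, against 278 to 436 CPM in CTRL. Fat body genes, 5 in number, summed to 1646 to 2109 CPM in PD, against 2296 to 3874 CPM in CTRL, and 5 gut genes to 9305 to 12883 CPM in PD, against 10543 to 14396 CPM in CTRL, with overlap for the gut only. Higher in PD without overlap were 5 photoreceptor genes, at 3669 to 4587 CPM in PD, against 2135 to 2591 CPM in CTRL. Neuronal genes, 5 in number, summed to 183 to 275 CPM in PD, against 130 to 204.5 CPM in CTRL, with overlap. In PWOFC the eggshell genes summed to 4320 to 13532 CPM and the photoreceptor genes to 220 to 815 CPM, against the PD values above. Without rotenone the photoreceptor genes were lower at day 14 as well, at 201 to 612 CPM in CWOFP, against the CTRL values above. The eggshell genes summed to 2925 to 5221 CPM in CWOFP, below CTRL. Neuronal genes summed to 62.1 to 91.0 CPM in PWOFC and 72.7 to 113 CPM in CWOFP, below PD and CTRL. The part of these tissues in comparisons between the days was not tested. The body genes summed to 3487 to 4257 CPM in PD, against 2305 to 2587 CPM in CTRL.

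**Figure D5:**
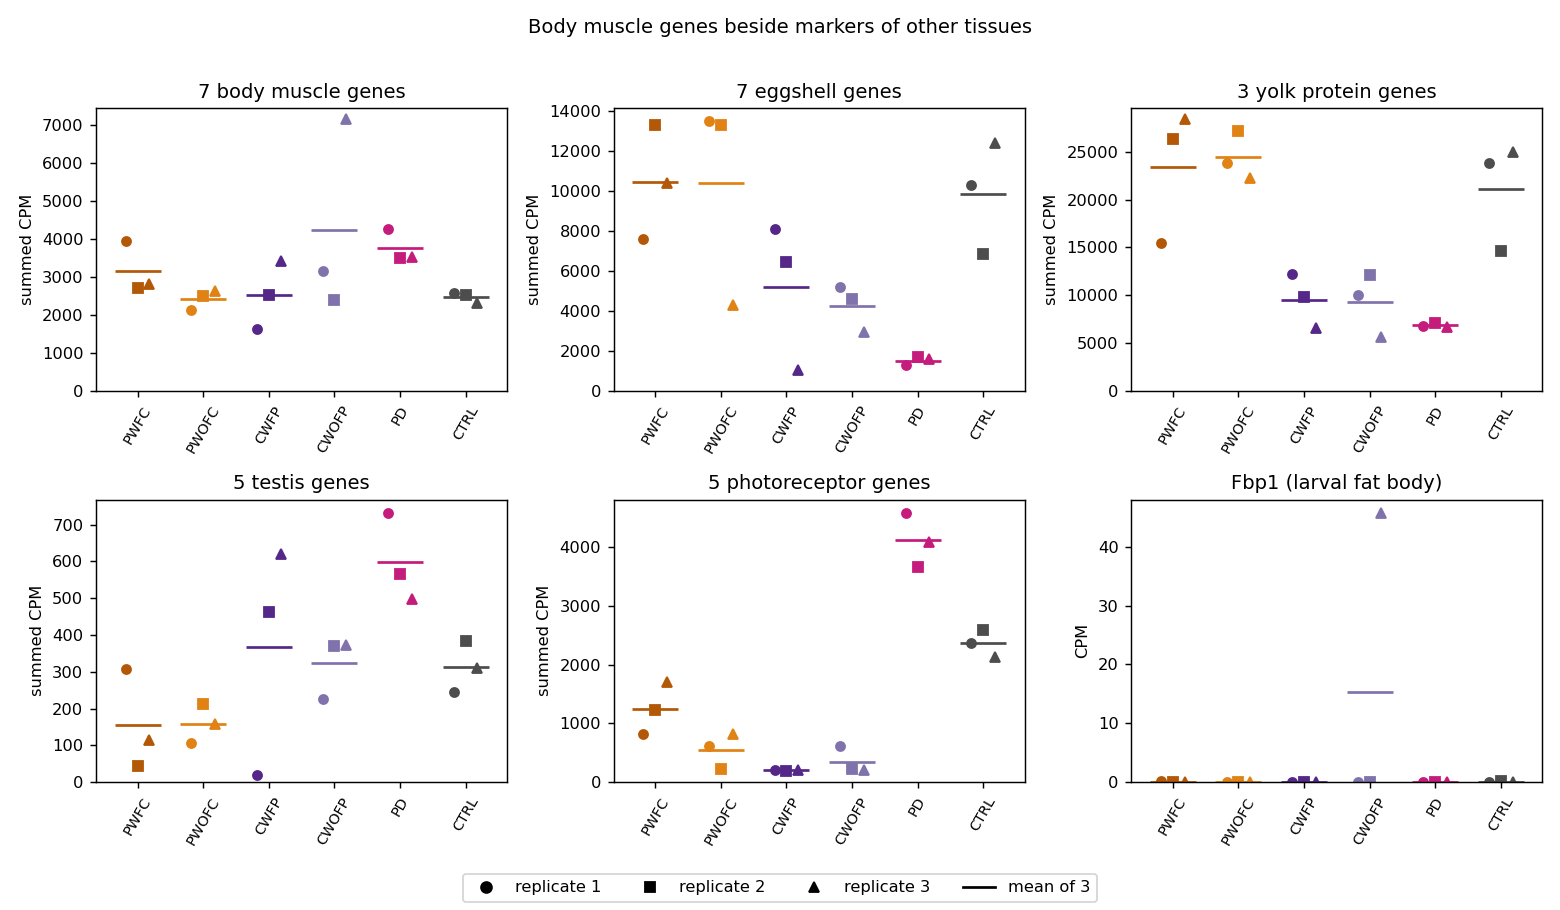
Summed CPM of the 7 body muscle genes beside 7 eggshell, 3 yolk protein, 5 testis, and 5 photoreceptor genes and the level of *Fbp1*, in the 3 libraries of each group with a line at the mean. PD libraries lie highest for photoreceptor genes (3669 to 4587 CPM) and lowest with 1 CWFP library for eggshell genes, and only replicate 3 of CWOFP holds *Fbp1* above 0.103 CPM.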

How the data were processed

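Whole adults were sequenced as poly(A) RNA in 18 libraries, 3 for each of the PWFC, PWOFC, CWFP, CWOFP, PD, and CTRL groups. The authors assessed quality with FastQC, trimmed adapters with cutadapt, aligned reads with HISAT2 (dm6), then deposited the featureCounts output, an unnormalized whole count for each FlyBase gene. The submitters' processing notes also name StringTie 1.3.1 and DESeq2 1.36.0. Strand setting, annotation release, and treatment of reads with several matches are not given in the sources used here. The methods and the labels name different sequencing instruments. Libraries were assigned to groups by sample title, and 0 columns of the table belonged to other samples.

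Symbols were found for 17555 of the 17611 identifiers, and positions came from Ensembl release 115 of BDGP6, whose coordinates are those of dm6. CPM used the total gene counts of a library, and CPM per kilobase the merged exons of a gene. Each of 6 comparisons was fitted on its own 6 libraries with edgeR 4.0.16 and limma 3.58.1 in R 4.3.3, with filterByExpr (minimum count 10), TMM scaling (factors 0.884 to 1.12), and glmQLFit with robust estimation of the spread. Genes with a Benjamini-Hochberg adjusted p under 0.05 over all genes tested were called, and DETs also had an absolute log2 fold change above 1. Interactions were fitted on the 12 libraries of 4 groups. The tests were two-sided, and the test was tried on simulated counts with known changes. Alternatives were RLE and upper quartile scaling, no filter on low counts, DESeq2 1.42.0, a fit on all 18 libraries, the replicate number as a block, and each library left out in turn. For the flight to body ratio, they were the mean of log2 CPM over genes (prior count 2), the sums without *Act88F* and *Act57B*, and each library left out. Tables and figures were made with Python 3.11.15, pandas 2.3.3, NumPy 2.4.6, and matplotlib 3.10.9.

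The labels number replicates 1 to 3 in each group without saying what a number shares. Deviations from the group means correlated between libraries with the same number at 0.267 to 0.517 in CWFP against CWOFP. Replicate 2 of CWFP correlated almost as well with replicate 3 of CWOFP (0.259) as with replicate 2 (0.267). The numbers may thus pair these libraries, but the labels give no pairing, and a match among 3 libraries per group can arise by chance. The fit without the block was kept for the values given, and the blocked values are named as such. In the other 5 comparisons at least 1 correlation was under 0.1.

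The members and the lists were chosen with earlier results of these data known. The genes named are the 10 members, at most 5 called genes of smallest adjusted p per comparison from the list of other muscle genes, and the genes most alike in pattern. *Act5C*, *Fbp1*, *Lsp2*, *SERCA*, *Argk1*, and the marker sums were named after their values were seen.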

Additional observations from a re-analysis of the deposited data

Results flagged for a closer look

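For 5 members the difference with rotenone was not the same at day 14 as at day 7, by a test of the change itself (edgeR interaction, PWOFC over CWOFP minus PD over CTRL). The change on the log2 scale was -1.18 for *sls*, -1.42 for *wupA*, -1.86 for *Mlc2*, -2.86 for *Act88F*, and -1.15 for *Act57B*. At day 14 the values themselves were -0.73, -0.85, -1.14, -1.54, and -0.48 in this order, and at day 7 they were 0.58, 0.69, 0.83, 1.43, and 0.80, and none of these single values passed an adjusted p of 0.05. They come from fits of 6 libraries each, so the changes, fitted on 12 libraries, are not their exact differences. Without replicate 3 of CWOFP the day 14 values were -0.73 for *sls*, -0.34 for *wupA*, -0.31 for *Mlc2*, -0.73 for *Act88F*, and -0.051 for *Act57B*. Of all genes tested 13.8% changed in the same direction by this test, and 3 of the 5 members stayed called without replicate 3 of CWOFP. With one library left out in turn, 1 to 7 members were called, beside 1651 to 5977 genes in all. Only *sls* was called without each of the 12 libraries in turn.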

How the results depend on the processing

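Of the sarcomere genes called, 32 of 43 counts under an alternative stayed within 1.5 times the count reported. Most of the tests called 0 members, and 0 under both settings was counted as staying. The share is thus no measure of how stable the calls were. In PD against CTRL, where 0 were called, upper quartile scaling called 5, no filter 3, and DESeq2 7. DESeq2 called 1 in PWFC against PWOFC, in PWOFC against CWOFP, and in CWOFP against CTRL. The fit on all 18 libraries called 2 in PWOFC against PD, and in the interaction of rotenone and day RLE scaling called 8 and no filter 3. With one library left out the counts were 0 to 7 in PD against CTRL, 0 to 1 in CWOFP against CTRL, 6 to 8 in PWOFC against PD, and 1 to 7 in the interaction. The numbers of all genes called were 39 to 5361, 54 to 268, 6701 to 7962, and 1651 to 5977 in this order. The cause was not tested.

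The replicate number as a block called 4 members in PD against CTRL and 3 in the interaction of rotenone and day. No share of all genes is given for these counts, nor for the 3 called in that interaction without the filter. They are not read against the background. DETs with the block were 532 in PD against CTRL and 43 in PWOFC against CWOFP, though the correlations do not pair the libraries there. In CWFP against CWOFP, where the numbers may pair the libraries, the block changed no call, with 0 members and 0 DETs. It moved no other count of members or DETs by over 1.5 times, but in PWOFC against PD *Tm2* lost its call and *Act88F* gained one (adjusted p = 0.117 and 0.0204 in edgeR). No other call of a member in that comparison changed. Each library correlated best with its own number in 6 of 6 cases in CWFP against CWOFP and in at most 3 of 6 cases elsewhere.

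Of all genes in PD against CTRL 285 were DETs (upper quartile scaling 485, no filter 468, DESeq2 680, all 18 libraries 25, one library left out 39 to 1648). In CWFP against CWOFP 0 were DETs (DESeq2 49, all 18 libraries 25). In PWFC against PWOFC 0 were DETs (upper quartile 1, no filter 13, DESeq2 82, all 18 libraries 2, one library left out 0 to 33). PWOFC against CWOFP had 4 (DESeq2 498, all 18 libraries 38, one left out 2 to 23), CWOFP against CTRL 231 (DESeq2 521, one left out 54 to 257), and PWOFC against PD 4100 (all 18 libraries 2388). The interaction of rotenone and day had 2871 (one left out 1170 to 3862), and that of FMT and rotenone 0 (one left out 0 to 3). Genes called higher and lower in PD against CTRL were 218 and 183, against 775 and 210 with upper quartile scaling, and in PWOFC against PD 3735 and 4231, against 2383 and 5444.

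Some fold changes reversed. *Mhc* had -0.0039 in PD against CTRL and 0.0035 in PWOFC against PD with DESeq2. *TpnC4* in CWOFP against CTRL had 0.012 with RLE scaling, 0.0029 with upper quartile scaling, and 0.0077 with DESeq2. With replicate 1 of CWFP and replicate 3 of CWOFP both left out, chosen after seeing the data, CWFP against CWOFP had 0.0092 for *Act88F*, 0.50 for *TpnC4*, 0.11 for *Act57B*, 0.26 for *Mhc*, 0.034 for *Mlc2*, 0.30 for *Tm2*, 0.32 for *up*, and 0.26 for *wupA*. With one library left out the values in CWFP against CWOFP ran from -0.57 to 0.15 for *TpnC4*, -0.84 to 0.00068 for *Act57B*, -1.27 to 0.0042 for *Mhc*, -0.98 to 0.024 for *Tm2*, and -0.94 to 0.042 for *up*. In the same way *Mhc* ran from -0.066 to 0.17 in PD against CTRL, -0.20 to 0.029 in PWOFC against PD, -0.99 to 0.11 in PWOFC against CWOFP, -0.15 to 0.90 in CWOFP against CTRL, and -0.92 to 0.20 in the interaction of rotenone and day. *TpnC4* ran from -0.31 to 0.053 in PWOFC against CWOFP and -0.22 to 0.19 in CWOFP against CTRL, and *sls* from -0.047 to 0.19 in PWFC against PWOFC.

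The difference in the log2 ratio of flight to body genes, 0.0088 in CWFP minus CWOFP, was 0.43 without the actin genes, and 0.26 in CWOFP minus CTRL was -0.65. In PWOFC minus CWOFP -0.16 became 0.50 without the actin genes and 0.16 as a mean over genes, and in PWOFC minus PD -0.35 became -0.032 as a mean over genes. At 2 to 31 counts per library, the depth limits what can be said of *fln*. In the mean over genes *fln* weighs as much as each other flight gene. In the sums it weighs little, with at most 1.45 CPM where the flight sum was 58.4 to 313 CPM. How much of the shifts in the mean over genes comes from *fln* was not tested.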

Other observations

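Over the 18 libraries, the genes whose log2 CPM most resembled the mean of the 7 body genes were *Act87E* (Pearson r = 0.953), *SmydA-9* (0.946), *Mlc1* (0.939), *Prm* (0.938), and *hlk* (0.935), among 12981 genes. *Act87E* is an actin gene, *Mlc1* the gene of the other myosin light chain, and *Prm* that of paramyosin, a thick filament protein. For the mean of the 3 flight genes, in which *fln* near the floor has equal weight, they were *TpnC41C* (0.904), *SmydA-9* (0.881), *Mlc1* (0.853), *Act79B* (0.852), and *Mpcp1* (0.833). All 18 libraries are shared by these values, and replicate 3 of CWOFP is the highest of them in 8 of the 10 members, so they are given as descriptions with no p.

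In replicate 3 of CWOFP the muscle genes were not raised by one factor. *Act79B* had 9.56 times its median in the other 17 libraries, *TpnC41C* 5.76 times, *Act87E* 4.22 times, and *Mlc1* 3.67 times. Among the genes of calcium handling and energy, *SERCA* had 1.31 times and *Argk1*, an arginine kinase gene, 0.785 times its median. *Lsp2*, another larval gene, had 3.36 CPM there, against at most 1.13 CPM in the other libraries. Whether the larval transcripts and the muscle transcripts of this library share a source was not tested.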
